A study of Mus musculus with 10 samples.

Results

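Transcripts of Myc, of its partner Max and its antagonist Mxd1, and of 37 genes needed to make ribosomes were examined in macrophages sorted from mouse mammary tumours. The set comprised 40 genes taken by symbol from each sample's table: 3 genes of the MYC network, 33 nucleolar factors and 4 subunits of RNA polymerase I. Each of the 40 was found among the 46956 loci with a symbol, and each passed the filter on low counts together with 12500 loci in all. None was scarce, since the lowest count of any of them in any sample was 86 fragments and the highest was 7927. The loci of 6 of them list more than 1 symbol (Mxd1, Nop56, Nop58, Ncl, Ppan and Wdr74), so that their values also include fragments of small nucleolar RNAs or other genes inside the same locus.

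The cells came from tumours grown after 100000 cells of 4T1, a mouse mammary carcinoma line, were injected into a mammary fat pad (strain BALB/cJ). One group of mice received JHU083 at 1 mg/kg from day 7 to day 13, and the other received PBS as vehicle. In the body JHU083 releases 6-diazo-5-oxo-L-norleucine, which resembles glutamine and inactivates the enzymes that use it. Tumours were harvested on day 14 in both groups, and live cells positive for CD45, CD11b and F4/80 and negative for CD8, Ly6C and Ly6G were sorted. Polyadenylated RNA was sequenced from 5 vehicle and 5 JHU083 samples. The labels do not say that each sample came from a mouse of its own, so the p-values measure the spread between these samples. The comparison asks how treatment with the glutamine antagonist changes the level of these transcripts in tumour macrophages.

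MYC is a transcription factor that binds DNA as a dimer with MAX and drives genes for growth, and MXD proteins compete for MAX and repress the same sites. Ribosome biogenesis is its best-known target programme. In the nucleolus, RNA polymerase I transcribes one long precursor RNA, small nucleolar ribonucleoproteins modify it, and assembly factors fold and cut it into the small and the large ribosomal subunit. Macrophages raise MYC when they divide or respond to growth factors, and nucleotides built from glutamine are the raw material of the precursor RNA.

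Libraries held 11147870 to 15740701 fragments. The JHU083 libraries were deeper (14617560 ± 778229 fragments, SD, n = 5) than the vehicle libraries (12744917 ± 1254060, SD, n = 5; exact two-sided permutation test, p = 0.0238, the smallest possible being 0.0079). The ribosomal RNA locus Rn18s-rs5 was listed at 0 in vehicle 2, 4 and 5 and in JHU083 1 and 3, and took 2.38% to 4.64% of fragments in the other 5 libraries. The share of mitochondrially encoded transcripts was 1.79% ± 0.20 for vehicle and 2.31% ± 0.14 for JHU083 (SD over 5 samples each; exact two-sided permutation test, p = 0.0079). The sorted cells carried their defining markers: the 10 macrophage genes together reached 13356 to 17021 CPM (fragments scaled to the effective library size, on the usual scale of edgeR) in vehicle and 15591 to 19778 in JHU083, and 3 of the 10 (Adgre1, Csf1r and Mertk) rose. Transcripts of tumour epithelium were also present. The 14 epithelial keratin, claudin and adhesion genes summed to 321 to 705 CPM in vehicle and 110 to 232 in JHU083, 13 were tested and all 13 fell, while Krt5 never exceeded 10 fragments. Genes of dividing cells fell as well, 15 of 17, with sums of 1129 to 1387 CPM in vehicle and 636 to 756 in JHU083. In such bulk samples, fewer cells of a type and less RNA per cell cannot be told apart.

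Most of the 40 genes were lower after JHU083. At an adjusted p under 0.05 (edgeR's quasi-likelihood test over the 12500 loci, Benjamini-Hochberg adjustment), 25 fell, 2 rose and 13 did not pass. Across all loci tested, 18.3% fell and 18.4% rose. The lower share of these genes, 62.5%, was above that background and the higher share, 5%, was below it. The genes were chosen with earlier results of these data known, so these shares describe the set and are not a test of it. The log2 fold change was negative for 34 of the 40, with a median of -0.40, against a median of 0.01 over all loci and quartiles of -0.25 and 0.27. For 22 genes every JHU083 sample lay below every vehicle sample, and for 2 every one lay above. Over all loci, 11.1% separated downwards and 11.2% upwards. Within the 5 libraries that list the ribosomal RNA locus at 0, 7 of the 40 fell and none rose (over all loci there, 4.61% fell). Within the other 5 libraries, 21 fell and 1 rose (over all loci there, 11.7% fell), and with that locus left out of all libraries 25 fell. Of the 27 genes called in the full comparison, 5 passed in neither set of 5 (Nop58, Wdr74, Wdr43, Utp20 and Utp14a).

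**Figure D1:**
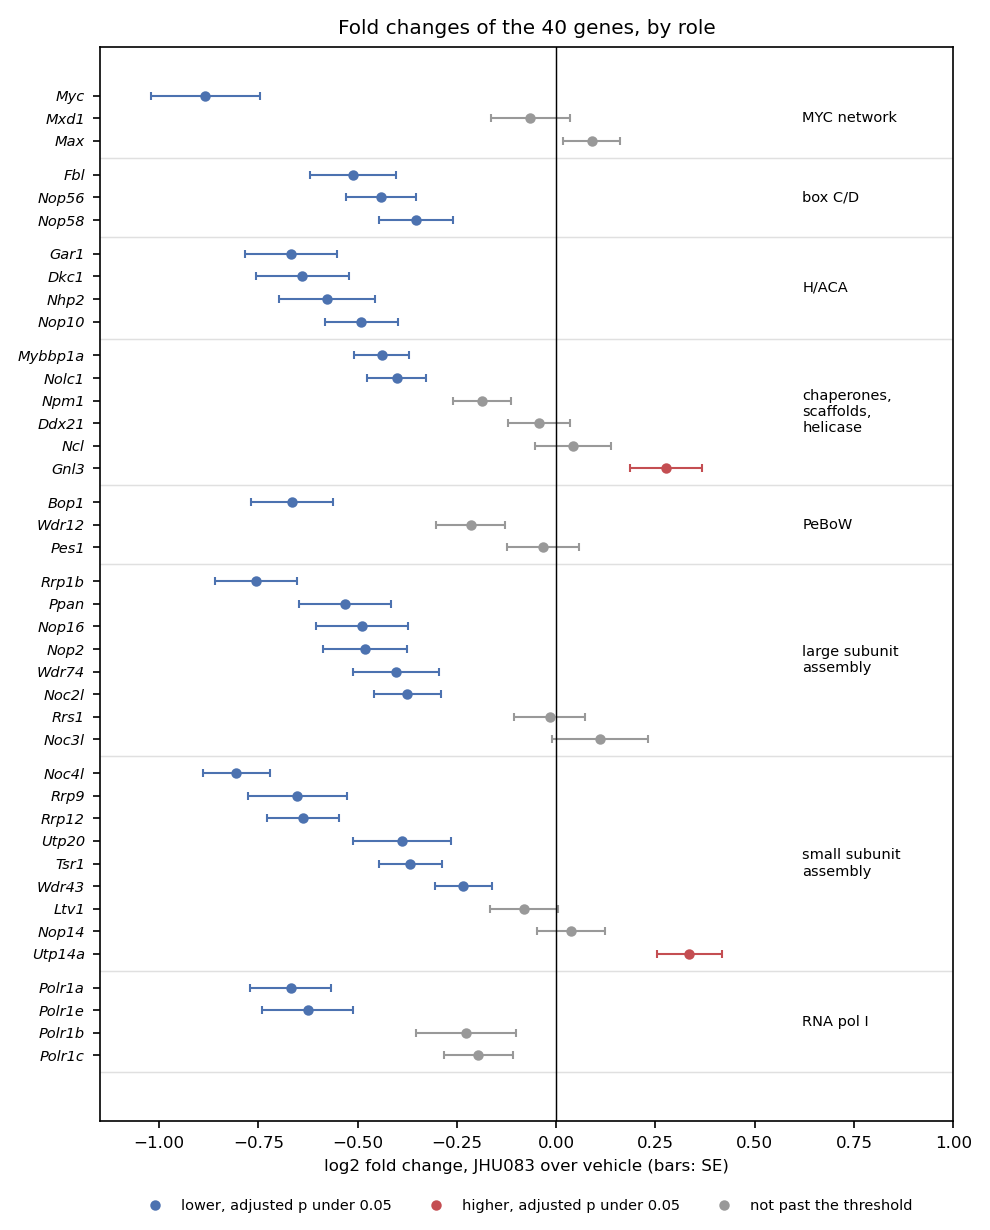
Log2 fold change of each of the 40 genes, JHU083 over vehicle, with its standard error as a bar, grouped by role and coloured by whether the adjusted p is under 0.05. Points left of 0 are lower after JHU083: 25 genes fell, 2 (Gnl3 and Utp14a) rose and 13 did not pass the threshold.

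Myc had the lowest fold change of the 40. Its level in vehicle 1 to 5 was 42.9, 60.03, 62.5, 45.5 and 41.1 CPM, and in JHU083 1 to 5 it was 28.5, 28.9, 20.7, 30.4 and 28.2 CPM. Every JHU083 sample lay below every vehicle sample, and the spread within vehicle came mainly from replicates 2 and 3. The mean was 50.4 ± 10.1 CPM in vehicle and 27.3 ± 3.83 in JHU083 (SD, n = 5 each), a 1.84-fold fall (log2 fold change -0.88 ± 0.14 SE, adjusted p = 0.000256). The gene lies on chromosome 15, 61985391 to 61990374 on the plus strand of GRCm38.

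The other 2 genes of the network in the set did not pass the test. Max, the obligate partner of MYC, was at 88.6, 84.8, 84.7, 97.0 and 101 CPM in vehicle and at 102, 98.8, 98.0, 92.0 and 93.5 CPM in JHU083. The groups overlapped, and the log2 fold change of Max was 0.09 (95% interval -0.07 to 0.24, adjusted p = 0.351). Mxd1, a repressor that takes MAX from MYC, was at 256 ± 20.6 CPM in vehicle and 245 ± 38.3 in JHU083 (SD, n = 5 each; log2 fold change -0.06, interval -0.28 to 0.15, adjusted p = 0.641). Its JHU083 samples ran from 198 CPM in replicate 3 to 301 CPM in replicate 1 and enclosed all 5 vehicle samples. Corrected for transcript length with the authors' FPKM values (fragments scaled by transcript length and by library size), Mxd1 exceeded Myc 1.96-fold in vehicle (1.74 to 2.20) and 3.57-fold in JHU083 (3.11 to 4.07). These ratios describe Myc being lower beside an Mxd1 level that did not pass the test.

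Among 10 other genes of the network that were tested, 2 rose (20%) and 1 fell (10%), shares near or below the 18.4% and 18.3% of all loci. Mxd4, another repressor that pairs with MAX, rose from 70.5 ± 2.33 to 121 ± 12 CPM (log2 fold change 0.78 ± 0.08 SE, adjusted p = 8.86e-06). Mga, a very large MAX partner, rose from 33.6 ± 8.92 to 55.0 ± 17.4 CPM (0.71 ± 0.22 SE, adjusted p = 0.0227), with overlapping groups. Mxd3, the family member linked to dividing cells, fell from 5.93 ± 0.83 to 2.77 ± 0.65 CPM (-1.10 ± 0.19 SE, adjusted p = 0.000511). Mycn had at most 1 fragment in any sample and was not tested.

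The canonical E-box CACGTG, the letters that MYC and MAX bind best, was searched in RefSeq promoter windows of 300 bases on GRCm38.p6, from 250 bases before to 50 after the start. The motif is its own reverse complement, so one search covers both strands. Windows were given for 34 of the 40 genes (not for Myc, Fbl, Npm1, Bop1, Rrs1 and Rrp12). Of these, 8 held the E-box (23.5%), against 8.09% of all 27025 symbols given a promoter window, whether or not they were tested here. They are printed because they show the motif that ties these genes to MYC in textbooks, with up to 10 bases on each side, 5′ to 3′ on the strand of the gene, and the E-box in capitals.
Nop2: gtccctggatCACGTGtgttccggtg
Max: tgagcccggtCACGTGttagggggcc
Pes1: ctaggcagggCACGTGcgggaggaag
Wdr43: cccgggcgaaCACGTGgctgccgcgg
Tsr1: acttggtgcaCACGTGgactgcagaa
Ltv1: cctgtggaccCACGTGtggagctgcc
Utp20: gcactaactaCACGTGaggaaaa
Mybbp1a: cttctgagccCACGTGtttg
The stretch of Nop2 lies at chr6:125131813-125131838 (plus strand) with its E-box beginning 60 bases before the start, and that of Max at chr12:76962236-76962261 (minus strand) spans the start. The other 6 E-boxes lie wholly within the transcript: Pes1 at chr11:3963967-3963992, Wdr43 at chr17:71616222-71616247, Tsr1 at chr11:74898094-74898119 and Mybbp1a at chr11:72441357-72441376 on the plus strand, and Ltv1 at chr10:13193094-13193119 and Utp20 at chr10:88826765-88826787 on the minus strand. Of the 8 genes with an E-box, 5 fell (Nop2, Wdr43, Tsr1, Utp20 and Mybbp1a), and of the 26 with a window and none, 16 fell. Both sets thus held genes that fell and genes that did not, and the match describes these letters in this window only.

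The small nucleolar ribonucleoproteins of the set were its most uniform group, with all 7 genes lower and no overlap between the groups of samples. Fibrillarin, Nop56 and Nop58 are proteins of the box C/D particle that methylates the sugar of ribosomal RNA. Their median log2 fold change was -0.44. Fbl, the methyltransferase itself, was at 167, 144, 137, 158 and 180 CPM in vehicle and at 106, 90.8, 137, 118 and 101 CPM in JHU083. Its vehicle replicate 3 and JHU083 replicate 3 nearly met, and the log2 fold change was -0.51 ± 0.11 SE (adjusted p = 0.00245). Nop56, a core scaffold of the particle, fell from 85.0 ± 5.26 to 62.7 ± 7.48 CPM (-0.44 ± 0.09 SE, adjusted p = 0.00166). Nop58, its close relative, had the smallest change of the 3, from 75.8 ± 6.48 to 59.4 ± 7.00 CPM (-0.35 ± 0.09 SE, adjusted p = 0.00932).

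The 4 proteins of the H/ACA particle, which turns uridine into pseudouridine, all fell, with a median log2 fold change of -0.61. Dkc1 encodes dyskerin, the pseudouridine synthase, and was at 30.4, 31.5, 42.5, 43.3 and 34.4 CPM in vehicle and 20.6, 24.4, 22.4, 22.5 and 26.9 CPM in JHU083. All JHU083 values were under the lowest vehicle value, and the fall was 1.56-fold (-0.64 ± 0.12 SE, adjusted p = 0.000836). On the authors' FPKM scale Dkc1 differed less, 18.3 ± 2.69 against 15.5 ± 3.09 (SD, n = 5 each), with overlapping groups. Gar1, the H/ACA protein with the glycine and arginine rich ends, was at 23.6, 20.1, 17.9, 20.2 and 25.4 CPM in vehicle and 13.2, 12.2, 14.2, 15.8 and 12.2 CPM in JHU083. It fell 1.59-fold without overlap (-0.67 ± 0.12 SE, adjusted p = 0.000596). Nhp2, an RNA-binding core protein, fell from 88.3 ± 5.57 to 59.2 ± 12.6 CPM (-0.58 ± 0.12 SE, adjusted p = 0.00218), with JHU083 replicate 3, at 79.0 CPM, close to the lowest vehicle value of 81.0. Nop10, the smallest protein of the particle, fell from 38.5 ± 3.88 to 27.4 ± 2.30 CPM (-0.49 ± 0.09 SE, adjusted p = 0.000983).

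Of the 6 nucleolar chaperones, scaffolds and helicase, 2 fell (33.3%) and 1 rose (16.7%), beside 18.3% and 18.4% of all loci. These counts are too small to set apart from those shares, and the median log2 fold change was -0.11. Npm1 encodes nucleophosmin, a histone and ribosome chaperone, and had the highest FPKM of the 40 genes (441 ± 35.3 in vehicle, SD, n = 5). It was at 522, 559, 589, 567 and 514 CPM in vehicle and 501, 421, 494, 520 and 482 CPM in JHU083. Of the JHU083 samples, 4 lay below the lowest vehicle sample, but the log2 fold change of -0.19 (95% interval -0.34 to -0.03) did not pass (adjusted p = 0.0557). Npm1 has many processed pseudogenes, and how fragments shared with them were counted is not given in the sources used here. Ncl encodes nucleolin and was at 405, 467, 550, 510 and 415 CPM in vehicle and 438, 474, 440, 542 and 519 CPM in JHU083. The 2 groups covered nearly the same range (0.04, interval -0.16 to 0.25, adjusted p = 0.762). Ddx21, an RNA helicase of the nucleolus, was likewise at 136 ± 12.1 and 132 ± 9.93 CPM (-0.04, interval -0.21 to 0.13, adjusted p = 0.697).

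The remaining 3 genes of this group passed the test. Mybbp1a, a MYB-binding protein that resides in the nucleolus, was at 153, 148, 137, 132 and 149 CPM in vehicle and 102, 102, 115, 108 and 103 CPM in JHU083. It fell 1.36-fold with a wide gap between the groups (-0.44 ± 0.07 SE, adjusted p = 0.00027). Nolc1, a scaffold that shuttles between nucleolus and Cajal bodies, fell from 63.9 ± 3.11 to 48.4 ± 3.39 CPM (-0.40 ± 0.07 SE, adjusted p = 0.000902). Gnl3, which encodes the GTPase nucleostemin, went the other way, at 35.9, 41.9, 39.1, 42.8 and 37.7 CPM in vehicle and 43.5, 43.4, 44.7, 55.4 and 51.9 CPM in JHU083. The gene is on chromosome 14, 31012433 to 31019152, minus strand. Every JHU083 sample was above the highest vehicle sample, by less than 1 CPM for replicates 1 and 2 (log2 fold change 0.28 ± 0.09 SE, adjusted p = 0.0286). Gnl3 did not pass without vehicle 1, vehicle 5, JHU083 4 or JHU083 5, each left out in turn, nor when counts were scaled by library size only, or within the 5 libraries that list the ribosomal RNA locus at 0.

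**Figure D2:**
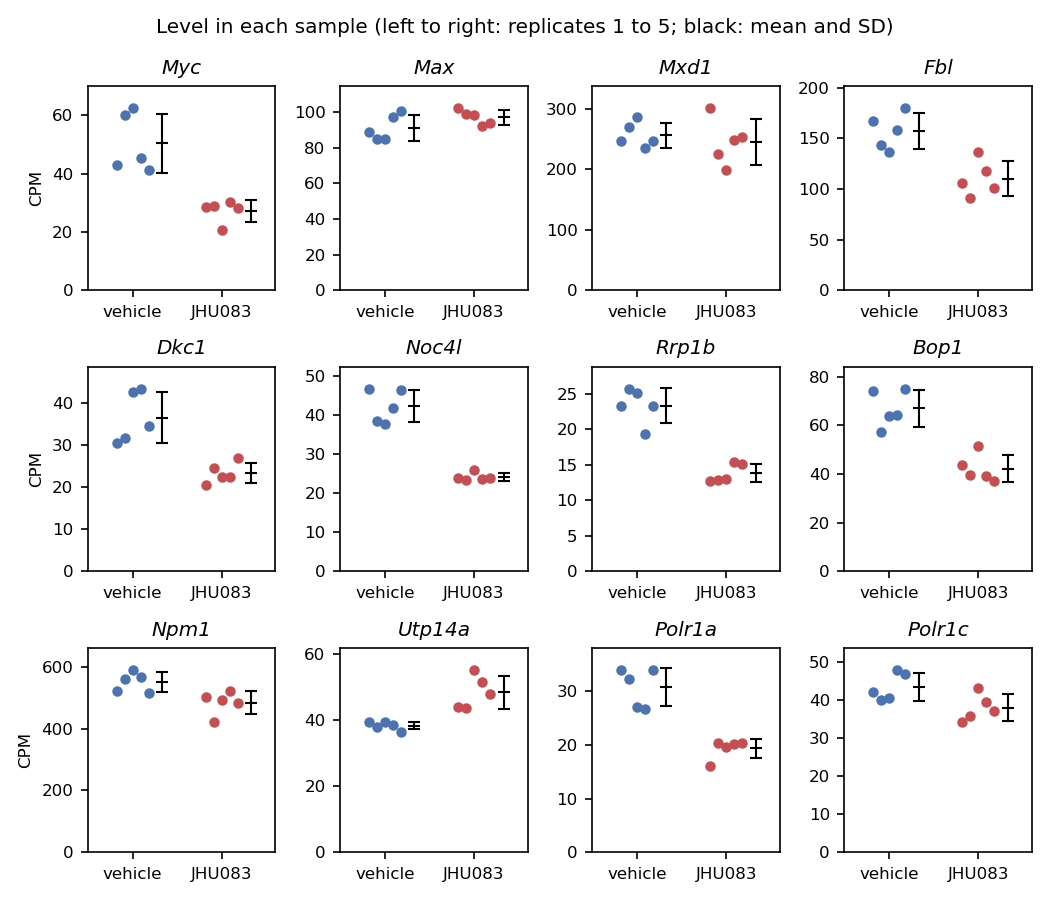
Level of 12 of the genes in each sample (vertical axes in CPM from 0; vehicle in blue, JHU083 in red, replicates 1 to 5 from left to right; black bars are mean and SD). Myc, Noc4l, Rrp1b, Bop1 and Polr1a separate completely, Max, Mxd1, Npm1 and Polr1c overlap, and Utp14a is higher in all 5 JHU083 samples.

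The 3 proteins of the PeBoW complex, which works as a unit in maturing the large subunit, differed in call: Bop1 fell, and Pes1 and Wdr12 did not pass. Bop1 was at 74.1, 57.4, 63.7, 64.4 and 74.9 CPM in vehicle and 43.8, 39.5, 51.3, 39.1 and 37.3 CPM in JHU083, with no overlap. It fell 1.59-fold (-0.66 ± 0.10 SE, adjusted p = 0.000265). Pes1, its direct partner, was at 143, 125, 121, 141 and 144 CPM in vehicle and 122, 121, 160, 135 and 121 CPM in JHU083, so that the highest of all 10 values was a JHU083 sample (-0.03, 95% interval -0.23 to 0.16, adjusted p = 0.805). The intervals of Bop1 (-0.89 to -0.44) and Pes1 did not overlap, although the difference between the 2 genes was not itself tested. Wdr12 lay between them, at 24.3 ± 1.23 and 20.96 ± 1.85 CPM (-0.22, interval -0.40 to -0.03, adjusted p = 0.0639).

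Of 8 other factors of the large subunit, 6 fell, none rose, and the median log2 fold change was -0.44. Rrp1b, a nucleolar protein that recruits a phosphatase, had the largest fall among them, from 23.2, 25.7, 25.1, 19.3 and 23.2 CPM to 12.8, 12.8, 13.0, 15.4 and 15.1 CPM. Rrp1b is on chromosome 17, 32036100 to 32062865, plus strand. The highest JHU083 sample was below the lowest vehicle sample, and the fall was 1.69-fold (-0.75 ± 0.10 SE, adjusted p = 0.0001). Ppan, a processing factor of the large subunit, fell from 26.5 ± 1.99 to 18.3 ± 3.13 CPM (-0.53 ± 0.12 SE, adjusted p = 0.00287). Nop2, a methyltransferase for ribosomal RNA and one of the genes with an E-box above, fell from 49.2 ± 7.95 to 35.2 ± 2.37 CPM (-0.48 ± 0.11 SE, adjusted p = 0.00308). For Nop16 (-0.49 ± 0.12 SE, adjusted p = 0.00503) and Wdr74 (-0.40 ± 0.11 SE, adjusted p = 0.0105), both assembly factors, JHU083 replicate 3 reached into the vehicle range, at 36.8 and 29.7 CPM.

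Noc2l, a partner of NOC proteins in moving precursor particles, fell from 79.5 ± 7.20 to 61.3 ± 5.28 CPM (-0.38 ± 0.08 SE, adjusted p = 0.00365). In GENCODE M21, 20.9% of its exonic bases also lie in exons of Samd11 on the opposite strand, and whether the counting used strand is not given in the sources used here. Noc3l, a relative of Noc2l, was not lower: it measured 12.6 ± 1.34 and 13.6 ± 1.97 CPM (0.11, interval -0.15 to 0.37, adjusted p = 0.493). Rrs1, which helps to bring 5S ribosomal RNA into the large subunit, was at 49.1 ± 5.03 and 48.6 ± 4.11 CPM (-0.02, interval -0.21 to 0.18, adjusted p = 0.906).

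The 9 small subunit factors spanned the widest range, from the lowest nucleolar gene to the highest. Noc4l, the NOC protein of the small subunit, was at 46.7, 38.6, 37.8, 41.9 and 46.3 CPM in vehicle and 23.9, 23.4, 25.9, 23.7 and 23.9 CPM in JHU083. The JHU083 values were nearly equal and far under the vehicle values, a 1.75-fold fall (-0.81 ± 0.08 SE, adjusted p = 1.33e-05, the smallest adjusted p of the 40). The gene lies on chromosome 5, 110648418 to 110653417, on the minus strand.

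Another 5 of these factors fell. Rrp9, a protein of the U3 particle that guides the first cuts, was at 39.9, 31.8, 32.4, 39.8 and 38.3 CPM in vehicle and 23.2, 18.4, 30.4, 21.9 and 22.1 CPM in JHU083 (-0.65 ± 0.12 SE, adjusted p = 0.00115). Rrp12, which helps to export the subunits, was at 20.6, 21.9, 23.9, 25.03 and 25.6 CPM in vehicle and 15.2, 14.0, 15.4, 16.1 and 14.5 CPM in JHU083 (-0.64 ± 0.09 SE, adjusted p = 0.000136). Neither gene overlapped between groups, although JHU083 replicate 3 came near the vehicle range for Rrp9. Tsr1, a GTPase-like factor of late precursors that carries an E-box, fell from 30.8 ± 1.67 to 23.8 ± 1.63 CPM (-0.37 ± 0.08 SE, adjusted p = 0.0028), and 32.3% of its exonic bases lie opposite exons of Srr. Utp20, a very large scaffold of the processome with an E-box, fell from 37.5 ± 3.91 to 28.7 ± 5.20 CPM (-0.39 ± 0.12 SE, adjusted p = 0.0245), with JHU083 replicate 2 inside the vehicle range. Wdr43, an early processome protein with an E-box, had the smallest change of all 25 genes that fell, from 56.1 ± 2.36 to 47.7 ± 3.13 CPM (-0.23 ± 0.07 SE, adjusted p = 0.0212). Utp20 did not pass without vehicle 2 or vehicle 3, and Wdr43 did not pass without vehicle 2 or JHU083 1, or with no filter on low counts. Neither gene passed within the 5 libraries that list the ribosomal RNA locus at 0, or within the other 5.

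Of the other 3 small subunit factors, 1 rose and 2 did not pass. Utp14a, a factor that activates the helicase Dhx37, was at 39.5, 38.1, 39.4, 38.8 and 36.6 CPM in vehicle and 44.0, 43.7, 55.3, 51.6 and 48.1 CPM in JHU083. All JHU083 samples were above all vehicle samples, a rise of 26.2% (0.34 ± 0.08 SE, adjusted p = 0.00577). Utp14a did not pass within the 5 libraries that list the ribosomal RNA locus at 0 (0.40, adjusted p = 0.115) or within the other 5 (0.28, adjusted p = 0.135). In GENCODE M21, 11.5% of its exonic bases lie opposite exons of 9530027J09Rik. The gene is on the X chromosome, 48256862 to 48282453, plus strand. Nop14 was at 29.1 ± 2.49 and 29.9 ± 1.96 CPM (0.04, interval -0.14 to 0.22, adjusted p = 0.759). Ltv1, an export factor with an E-box, was at 30.0 ± 1.87 and 28.3 ± 2.57 CPM (-0.08, interval -0.26 to 0.10, adjusted p = 0.485).

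Of the 4 RNA polymerase I subunits in the set, 2 fell. Polr1a, the largest catalytic subunit, was at 33.9, 32.2, 27.2, 26.7 and 34.0 CPM in vehicle and 16.2, 20.4, 19.7, 20.2 and 20.4 CPM in JHU083. It fell 1.59-fold with no overlap (-0.67 ± 0.10 SE, adjusted p = 0.000228), and lies on chromosome 6, 71909053 to 71984935, plus strand. Polr1e, which helps the enzyme to engage its initiation factor, was at 12.6, 10.7, 9.88, 9.12 and 10.6 CPM in vehicle and 6.68, 6.92, 6.78, 6.58 and 7.27 CPM in JHU083. It fell 1.54-fold, again with no overlap (-0.63 ± 0.11 SE, adjusted p = 0.000876), and lies on chromosome 4, 45018583 to 45036565, plus strand. Polr1b, the second-largest subunit and catalytic partner of Polr1a, was at 8.96, 10.4, 10.03, 7.82 and 9.94 CPM in vehicle and 8.05, 9.25, 6.86, 8.87 and 7.33 CPM in JHU083. Its groups overlapped (-0.23, 95% interval -0.50 to 0.04, adjusted p = 0.172). Polr1c, a subunit shared with RNA polymerase III, was at 42.0, 40.1, 40.5, 47.9 and 46.8 CPM in vehicle and 34.1, 35.8, 43.2, 39.5 and 37.0 CPM in JHU083. Here 4 of 5 JHU083 samples lay below the lowest vehicle sample, but replicate 3 did not (-0.20, interval -0.38 to -0.01, adjusted p = 0.0929).

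Set side by side, the 4 polymerase subunits of the set and the nucleolar factors had close medians. The median log2 fold change was -0.43 over 4 polymerase subunits (range -0.67 to -0.20). Over 33 nucleolar factors it was -0.40 (range -0.81 to 0.34). No subunit lay near -0.43: Polr1a (-0.67) and Polr1e (-0.63) lay below it, and Polr1b (-0.23) and Polr1c (-0.20) above it. Outside the set, the log2 fold change was -0.08 for Polr1d, 0.04 for Znrd1, 0.18 for Twistnb and -0.29 for Cd3eap. The close medians thus describe these 4 subunits, not the enzyme as a whole. Of the nucleolar factors 22 fell (66.7%), 2 rose and 9 did not pass, and of the subunits 2 fell (50%) and none rose. With 4 subunits, of which 2 fell, these shares cannot be ranked. Both classes separated the 5 vehicle from the 5 JHU083 samples when each gene's log2 CPM was centred on its mean over the 10 samples. The median of the nucleolar factors ran from 0.14 to 0.25 in vehicle and from -0.29 to -0.07 in JHU083, and that of the subunits from 0.12 to 0.29 and from -0.31 to -0.15. The difference between the classes was not tested, because genes are not replicates of a treatment.

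By FPKM the 40 genes covered a wide range of abundance in vehicle. Npm1 (441 ± 35.3), Fbl (148 ± 15.6), Ncl (129 ± 13.3) and Nhp2 (101 ± 6.38) led, and the spreads of Fbl and Ncl overlapped. Myc stood 14th, at 30.0 ± 6.93 in vehicle and 16.6 ± 2.39 in JHU083. The lowest were Polr1a (4.66 ± 1.00), Utp20 (3.99 ± 0.43), Noc3l (3.06 ± 0.34) and Polr1b (2.78 ± 0.36). The spreads (mean ± SD) of Polr1a and Utp20 overlapped, as did those of Noc3l and Polr1b, whereas those of Utp20 and Noc3l did not. Both highly and weakly expressed genes were among those that fell.

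**Figure D3:**
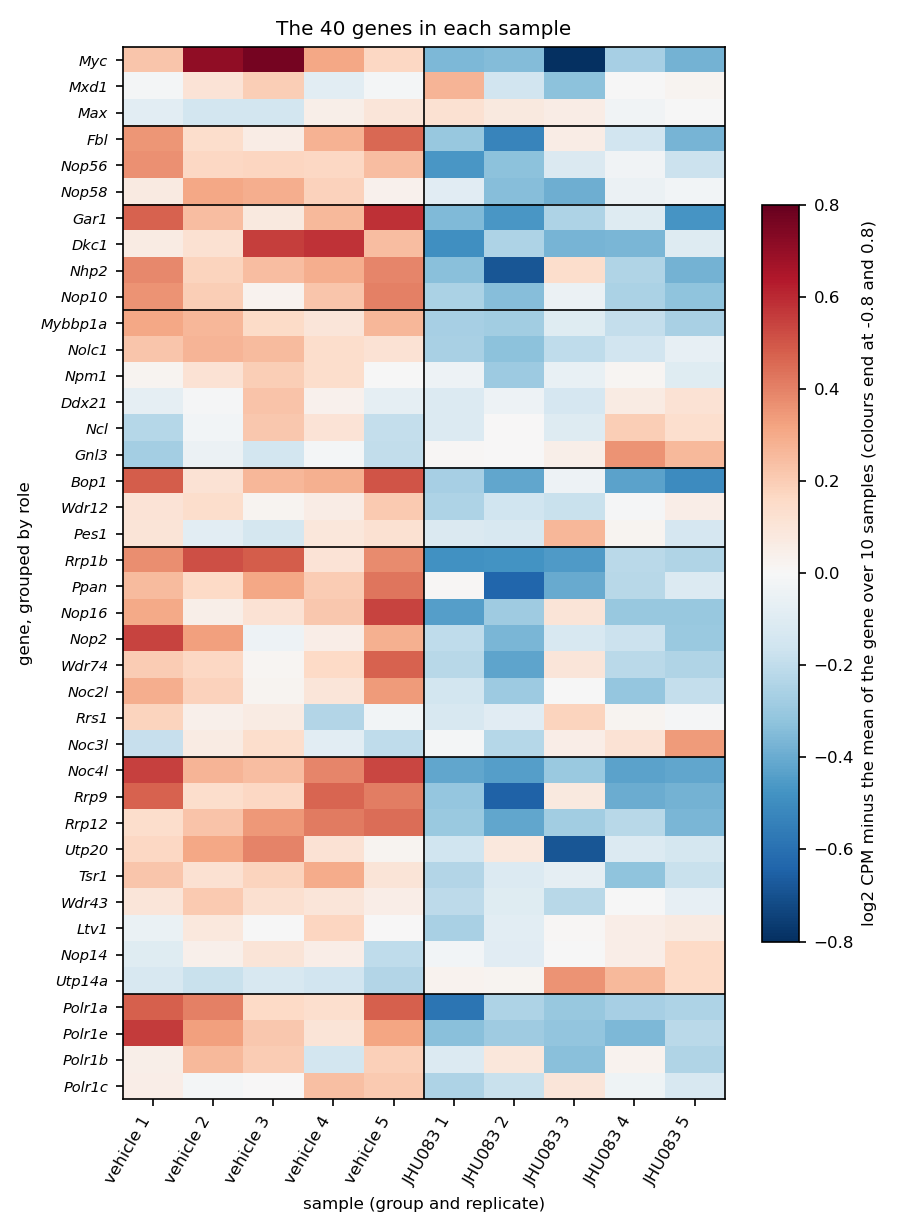
Level of each of the 40 genes (rows, grouped by role) in each of the 10 samples (columns), as log2 CPM minus the gene's mean over the samples. Most rows are red in the 5 vehicle columns and blue in the 5 JHU083 columns, with Gnl3 and Utp14a the reverse, and JHU083 replicate 3 is palest in many rows but darkest for Myc.

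Samples of one group did not hold all the genes at the same relative level. Among the 25 genes that fell, vehicle replicate 5 was the highest vehicle sample for 11, among them Fbl, Bop1, Gar1, Nop10, Nop16 and Wdr74, and the lowest for 6, Myc among them. JHU083 replicate 3 was the highest JHU083 sample for 12 of the 25, including Fbl, Nhp2, Rrp9, Nop16 and Noc4l, yet had the lowest Myc and the lowest Utp20. JHU083 replicate 2 was lowest for 11 of the 25. Samples with more Myc transcript than others of their group were therefore not always those with more of the nucleolar transcripts.

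Markers of other cells were set beside Myc and Noc4l, sample by sample. Within vehicle, the epithelial sums were 449, 705, 617, 499 and 321 CPM in replicates 1 to 5, and Myc was highest in replicates 2 and 3 and lowest in replicate 5. Within JHU083 the sums were 155, 190, 110, 232 and 140 CPM, in the same order as Myc from replicate 3, the lowest, to replicate 4, the highest. Noc4l did not share that order, being highest in vehicle 1 and 5, where the epithelial sums were lower and the sums of dividing-cell genes, at 1387 and 1301 CPM, were the highest of the group. Within JHU083, Noc4l was highest in replicate 3, whereas the dividing-cell sum was highest in replicate 1.

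The dividing-cell sums were 1387, 1236, 1129, 1180 and 1301 CPM in vehicle and 756, 689, 707, 636 and 636 CPM in JHU083, so the groups did not overlap. Fibroblast genes summed to 110 to 239 CPM in vehicle and 32.4 to 129 in JHU083 (5 of 8 fell). Endothelial genes summed to 126 to 214 and 37.0 to 88.7 CPM (1 of 4 tested fell). Most of the endothelial sum was Pecam1, the gene that fell (means 151 CPM in vehicle and 52.5 in JHU083). T and NK cell genes summed to 16.4 to 21.1 and 28.8 to 46.5 CPM (1 of 2 tested rose), and neutrophil genes to 90.5 to 102 and 92.3 to 141 (2 of 4 tested fell and 1 rose). Most of the T and NK cell sum was Cd4, the gene that rose (means 14.7 CPM in vehicle and 31.8 in JHU083). Most of the neutrophil sum was Csf3r, which rose (58.4 and 84.5 CPM), while S100a8 and S100a9 fell. Other defining markers of these last 2 types were near 0, with at most 10 fragments of Cd3e and 2 of Ly6g in any sample. The part of tumour, dividing and other cells in the lower level of Myc and the ribosome biogenesis genes was not tested.

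**Figure D4:**
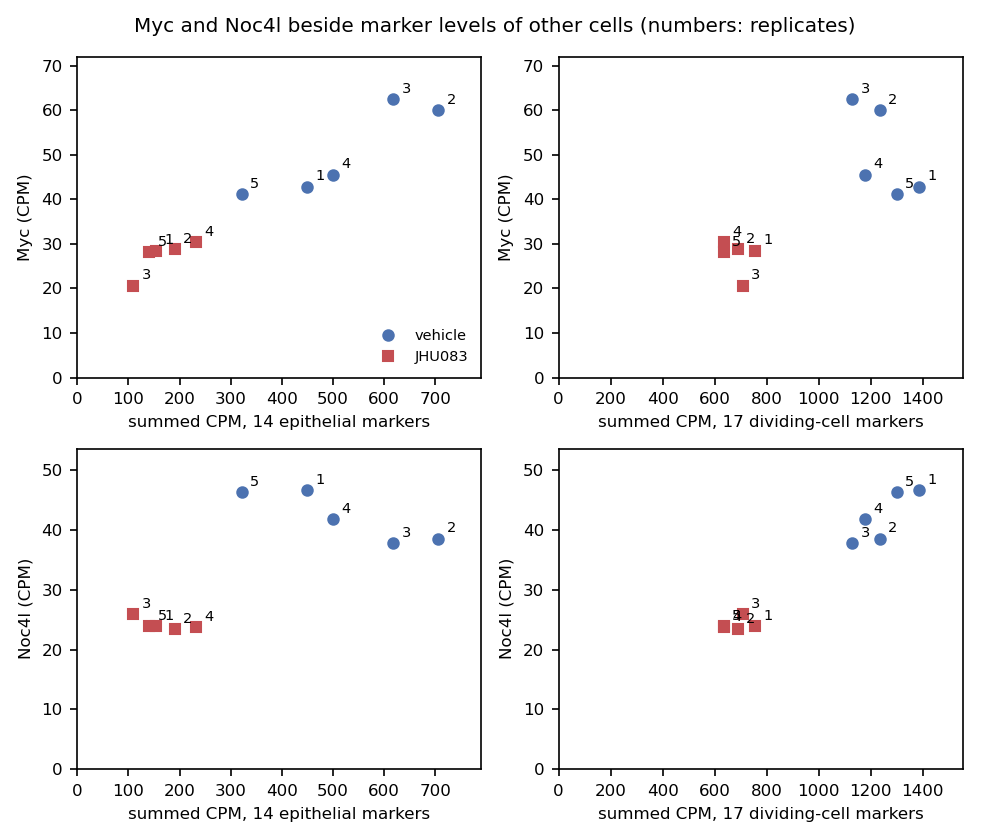
Myc (top) and Noc4l (bottom) in CPM against the summed CPM of 14 epithelial markers (left) and 17 dividing-cell markers (right), 1 point a sample, numbered by replicate. Myc has the order of the epithelial sum within JHU083 and, but for replicates 2 and 3, within vehicle, while Noc4l is highest in vehicle 1 and 5, and both marker sums are lower in all 5 JHU083 samples.

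Other genes of the same machinery were counted in lists of their own. Among 38 other factors of the small subunit processome, 9 fell and 1 rose (median log2 fold change -0.15). Rcl1 (-0.61 ± 0.10 SE, adjusted p = 0.000369) and Tbl3 (-0.60 ± 0.13 SE, adjusted p = 0.00343) fell furthest, and Ddx52, a helicase, rose (0.28 ± 0.08 SE, adjusted p = 0.01). Among 35 other factors of the large subunit, 11 fell and 3 rose (median -0.19). Pelp1, a scaffold of the rixosome, fell 0.56 on the log2 scale, and Sbds, the late factor mutated in Shwachman-Diamond syndrome, rose by 0.36. In both lists together 20 of 73 fell (27.4%), beside the 18.3% of all loci, and 59 of the 73 had negative fold changes. Whether the 40 genes differ from these lists was not tested.

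The other 12 genes of RNA polymerase I and its factors had a median log2 fold change of -0.03, with 2 lower (16.7%) and none higher, beside the 18.3% of all loci that fell. The other subunits of the enzyme were nearer to 0 than Polr1a and Polr1e: the log2 fold change was -0.08 for Polr1d, 0.04 for Znrd1 and 0.18 for Twistnb, of which none passed. The 2 that fell were Cd3eap, also a polymerase I subunit (-0.29 ± 0.10 SE, adjusted p = 0.0325), and Ptrf (-1.53 ± 0.26 SE, adjusted p = 0.000484), which besides its role in releasing transcripts encodes a coat protein of caveolae. The initiation factors Rrn3 (-0.15 ± 0.07 SE, adjusted p = 0.120) and Ubtf (-0.15 ± 0.07 SE, adjusted p = 0.119) did not pass. Of subunits found only in RNA polymerase II, 1 of 7 fell (14.3%), and of those found only in RNA polymerase III, 1 of 10 (10%), counts too small to set apart from the share of all loci.

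Of the cytosolic ribosomal proteins, which the pathway assembles into subunits, 4 of 80 fell, none rose, and the median log2 fold change was -0.13. Of mitochondrial ribosomal protein genes 25 of 77 fell and none rose (median -0.26). Of known MYC targets outside ribosome biogenesis 15 of 20 fell and none rose, with a median of -0.40. Cad, the multifunctional first enzyme of pyrimidine synthesis, fell from 60.5 ± 4.32 to 29.0 ± 1.17 CPM (-1.06 ± 0.08 SE, adjusted p = 8.38e-07), and Shmt2, the mitochondrial serine hydroxymethyltransferase, from 119 ± 12.2 to 64.5 ± 7.84 CPM (-0.89 ± 0.10 SE, adjusted p = 1.58e-05).

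**Figure D5:**
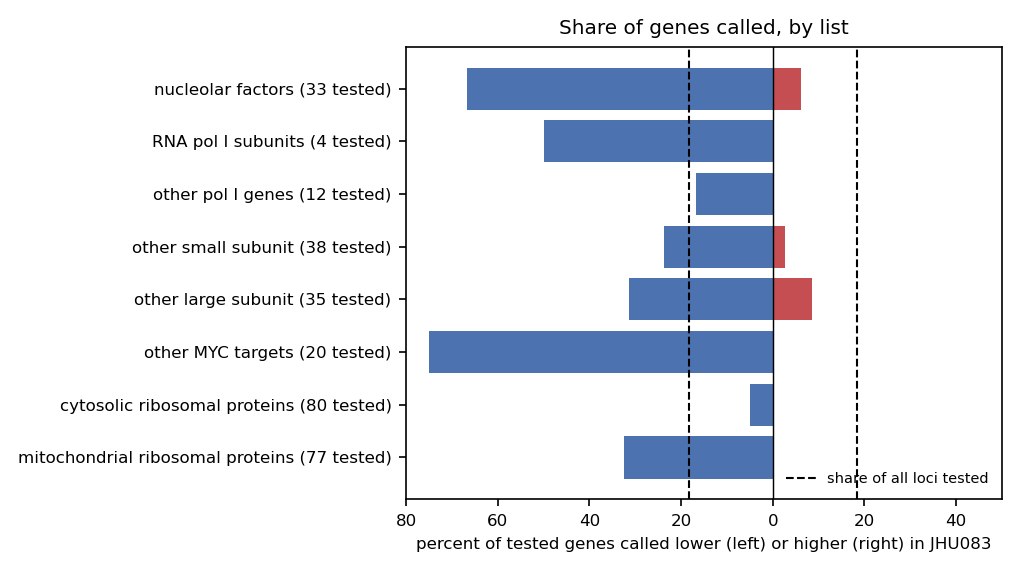
Percent of the tested genes of 8 lists that fell (left, blue) or rose (right, red) in JHU083 at an adjusted p under 0.05, with dashed lines at the shares over all loci, 18.3% and 18.4%. The nucleolar factors (66.7% lower) and the other MYC targets (75% lower) reach furthest left of the lists drawn, and the cytosolic ribosomal proteins (5% lower) the least.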

How the data were processed

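RNA sequencing tables of 5 vehicle and 5 JHU083 samples were used, grouped by the treatment in the labels. Per the submitters' processing notes, bcl2fastq 2.17.1.14, FastQC 0.11.2, TopHat2 2.1.1 and GRCm38 were used; the counting program and annotation are not given in the sources used here. The authors deposited raw counts, per the file headers; the values are not whole, so as deposited they are an estimated count per locus, and how they were scaled is not given in the sources used here. In each sample 99.8% to 100.0% of positive values were whole multiples (tolerance 0.05) of a step of 0.888 to 1.17; dividing by it and rounding gave fragment counts. The authors deposited FPKM in the column headed as normalized, as judged from the values, and it was used, with no test, for levels between genes, for the ratio of Mxd1 to Myc and for each gene's means and ranges by group. Of 46957 loci, 1 without a symbol was left out (0.0013% to 0.0021% of fragments).

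Loci were filtered with filterByExpr, scaled with TMM and tested in edgeR 4.0.16 (R 4.3.3) by its quasi-likelihood F-test, with Benjamini-Hochberg adjustment over 12500 loci at 0.05 and no covariate. The standard error is the absolute log2 fold change over the square root of F. CPM uses TMM-scaled library sizes, and log2 CPM a prior count of 2. The script was tested on simulated data. Other settings tried were limma-voom (limma 3.58.1), DESeq2 1.42.0, RLE size factors, library size only, no filter, the deposited values rounded, each sample left out, the replicate number as a block, and fits without the ribosomal RNA locus or within the samples that do or do not list it at 0. Positions and exon overlaps came from GENCODE M21. Python 3.11.15, numpy 2.4.6, pandas 2.3.3, scipy 1.17.1 and matplotlib 3.10.9 were used. All 40 members are named; of the other pathway lists, the text draws on the 2 genes with the lowest and the 2 with the highest log2 fold change among those past the threshold with a mean of at least 10 counts, and Rrn3 and Ubtf were named after their values were seen. The members and lists were chosen with earlier results of these data known. Counts are fragments without molecular identifiers, and the share of duplicate fragments was not measured.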

Additional observations from a re-analysis of the deposited data

Results flagged for a closer look

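In 4 of the 80 groups of 5 samples examined (40 genes in 2 groups), 1 sample stood further from the other 4 than the critical gap of 0.71 of the group's range, and chance alone gives about 4. Myc in JHU083 replicate 3 was the lowest of its group, at 4.38 log2 CPM, where the others lay between 4.82 and 4.93. In the same replicate Nop16, at 5.21 log2 CPM, and Noc4l, at 4.71, were the highest of their group, where the others lay between 4.67 and 4.82 and between 4.56 and 4.59. Polr1a in JHU083 replicate 1 was the lowest of its group, at 4.03 log2 CPM, where the others lay between 4.31 and 4.36. Myc, Noc4l, Nop16 and Polr1a each fell in the full comparison and also with the sample concerned left out.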

How the results depend on the processing

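All 25 genes that fell kept a negative fold change under each of the 20 alternatives, and of 800 comparisons of single members 739 kept direction and call, 38 lost a call, 7 gained one and 16 changed sign. The number that fell was 21 to 28 in every alternative except the 5 samples that list the ribosomal RNA locus at 0, where it was 7 (over all loci, 4.61% fell there); the cause beyond the fewer samples was not tested. The number that rose was 0 in those 5 samples and 1 in the other 5, 1 with library size only and 1 with the replicate block. With library size only, which moved the median of all loci to -0.07 and their calls to 12.5% higher and 25.1% lower, the medians were -0.48 for nucleolar factors and -0.51 for polymerase I subunits. Leaving out each sample gave 23 to 27 lower genes, 1 to 2 higher genes, and medians of -0.42 to -0.38 for nucleolar factors and -0.48 to -0.40 for polymerase I subunits. The 7 gained calls were Npm1 with DESeq2, with library size only and without JHU083 3, Polr1c with library size only and without JHU083 3, and Wdr12 with library size only and without JHU083 5.

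The fold changes that changed sign all belonged to genes past no threshold. Leaving out each sample in turn gave -0.0075 to 0.10 for Ncl (negative without vehicle 1, vehicle 5 or JHU083 4), -0.0081 to 0.068 for Nop14 (negative without vehicle 5), -0.076 to 0.029 for Rrs1 (positive without vehicle 1, JHU083 1 or JHU083 2), -0.075 to 0.011 for Ddx21 (positive without vehicle 3) and -0.15 to 0.0049 for Mxd1 (positive without JHU083 3). With library size only, Ncl was at -0.041 and Nop14 at -0.046. In the samples with the locus at 0, Ncl was at -0.075, Rrs1 at 0.10, Mxd1 at 0.00096 and Pes1 at 0.047, and in the other 5 samples Ltv1 was at 0.039.

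No label says that equal replicate numbers pair samples. Deviations of samples with the same number correlated at -0.19 on average (-0.57 to 0.09), against 0.05 for other numbers. With 5 samples a group, these correlations cannot decide whether samples were paired. With the replicate block 23 genes fell; Utp20, Wdr43 and Gnl3 lost their calls. The counts, with at least 86 fragments for each gene in each sample, were not limited by detection, and 5 samples a group limit the precision.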

Other observations

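The authors' FPKM values placed the genes that fell in the same direction as the counts did: all 25 had a lower mean FPKM in JHU083. The separation was less complete on that scale. The groups did not overlap for 18 of the 25, and overlapped for Dkc1, Nop16, Nop58, Polr1a, Tsr1, Utp20 and Wdr74. Dkc1 differed most between the scales, with a vehicle to JHU083 ratio of 1.18 by FPKM beside 1.56 by counts. Its vehicle samples ran from 15.1 to 21.4 FPKM and its JHU083 samples from 11.9 to 19.8. The cause of the difference between the scales was not tested.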
